A study of Mus musculus with 8 samples.

Results

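DNA copy number was examined at 10 imprinted genes that act on growth, in 6 hepatocellular carcinomas and 2 non-tumour livers of mice. The genes are Igf2, H19, Igf2r, Dlk1, Cdkn1c, Kcnq1, Grb10, Peg3, Mest and Plagl1, which are 10 of the 25612 genes named on the array. Probes of 9 genes were found by the array's gene name. H19 was found through the description of 1 probe, whose gene name is the accession of an H19 transcript. In all, 90 probes lie in the 10 genes, and every one of them was well above background in both channels on the wild-type array. The genes sit at 7 places in the genome, since Igf2, H19, Kcnq1 and Cdkn1c share a stretch of 882 kb near the end of chromosome 7.

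All mice were male C57BL/6. The tumours, here numbered 1 to 6, came from mice carrying a FEAT transgene, which is another name for the methyltransferase gene Mettl13, at 16, 21, 20, 18.5, 22 and 12 months of age. One non-tumour liver came from a FEAT transgenic mouse of 13 months and one from a wild-type mouse of 6 months, so neither group is replicated. The reference on every array was DNA from a normal wild-type male liver of the same strain at 6 months. The labels place the tumours in the liver, with lung metastasis in the mouse of tumour 4. The sources used here name neither the promoter of the transgene nor the share of tumour cells in each piece, and DNA carries no expression marker by which the tissue could be checked. Tumours 1 to 5 came from older mice than either non-tumour liver, and tumour state and age cannot be told apart in them.

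Imprinted genes are read mainly from 1 parental chromosome, chosen by DNA methylation laid down in the egg or the sperm. Several of them form a growth circuit in the fetus, and the fetal liver expresses many that fall silent in the adult. Because 1 copy is silent, losing the other can remove the gene's output, while losing the silent one may leave it in place. Array comparative genomic hybridisation counts DNA and cannot tell the parental copies apart in an inbred strain. Expression and methylation were not analysed here.

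Each value is the log2 of test over reference DNA, set to 0 at each array's autosomal median. A loss of 1 of 2 copies in every cell of a sample would ideally read -1, and 1 extra copy 0.58. Single probes of the genes scattered far more than the shifts described here. For that reason the level of a gene is given as the mean of all probes from 0.5 Mb before to 0.5 Mb after it (105 to 186 probes, called its window). Each chromosome was also divided into segments of even level, and a gene was called lost or gained where its segment stood at or beyond 0.2 in either direction.

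The noise between neighbouring probes was 0.22 to 0.49 in the 8 arrays, highest in tumour 4. Probe values correlated between arrays at r = 0.264 to 0.76 over autosomal probes, in 28 pairs that share a reference and probe effects. The 7 pairs with the wild-type liver ranged from 0.264 to 0.423 and the other 21 from 0.409 to 0.76. At the more variable of the 2 Mettl13 probes, the 6 tumours and the FEAT liver read 0.26 to 3.73 and the wild-type liver -0.15. At the other they read 0.37 to 1.07 and 0.15. Mean probe GC content was 35.6% to 37.5% in the gene windows and 36.6% over all autosomal probes.

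The probes that stand for the least covered genes show how little of a gene a single value can report. They are printed 5′ to 3′ in lower case as the scanner file gives them, with no base marked. Positions are those of the array's annotation, for which the sources used here name no genome build. H19 and Cdkn1c have 1 probe each, Dlk1 has 2 and Igf2 has 3.
H19, chr7:139003511-139003563: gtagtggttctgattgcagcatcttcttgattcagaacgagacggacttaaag
Cdkn1c, chr7:139885787-139885846: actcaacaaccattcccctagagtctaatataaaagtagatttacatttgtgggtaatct
Igf2 probe 1, chr7:139078498-139078557: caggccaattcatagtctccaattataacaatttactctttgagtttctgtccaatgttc
Igf2 probe 2, chr7:139080850-139080906: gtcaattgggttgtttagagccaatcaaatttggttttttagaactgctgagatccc
Igf2 probe 3, chr7:139083213-139083272: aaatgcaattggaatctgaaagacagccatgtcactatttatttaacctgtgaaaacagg
Dlk1 probe 1, chr12:106975593-106975652: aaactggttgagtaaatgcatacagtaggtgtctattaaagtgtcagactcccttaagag
Dlk1 probe 2, chr12:106981703-106981762: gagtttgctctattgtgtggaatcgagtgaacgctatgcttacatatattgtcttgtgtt

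Igf2 probe 1 read -0.69, -0.24, -0.33, -1.07, -0.25 and -1.44 in tumours 1 to 6, -2.43 in the FEAT liver and 0.16 in the wild-type liver. Among all 90 probes and 8 arrays the lowest value was thus in a non-tumour liver. On the wild-type array that probe gave 3529 intensity units in green and 3221 in red. Igf2 probes 2 and 3, which lie within 5 kb of it, read between -0.26 and 0.24 in the tumours, and -0.06 and 0.12 in the FEAT liver. The low level was therefore not shared by the neighbouring probes of the same gene.

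The H19 probe ranged from -0.42 to 0.51 over the tumours, with -0.61 in the FEAT liver and -0.11 in the wild-type liver. Cdkn1c's single probe ranged from -0.22 to 0.91 in the tumours and read 0.45 and 0.50 in the FEAT and wild-type livers. Dlk1 probe 1 was below 0 on all 8 arrays, from -1.01 to -0.36 in the tumours and at -0.60 and -0.40 in the FEAT and wild-type livers. Over the 90 member probes, each tumour's values correlated with those of the FEAT liver (r = 0.354 to 0.76) and of the wild-type liver (r = 0.378 to 0.582). The lowest of both belonged to tumour 5. These are descriptions over probes, which share the reference DNA and their own hybridisation behaviour.

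Of 60 pairs of a gene and a tumour, 6 were called lost and 0 gained. Tumour 5 held 5 of the 6 losses, at Igf2, H19, Kcnq1, Cdkn1c and Peg3, and tumour 1 held the other, at Dlk1. Neither non-tumour liver had a call at any of the 10 genes, and tumours 2, 3, 4 and 6 had none. Over all genes, 23.9% were lost in at least 1 tumour and 16.5% gained, against 6 and 0 of the 10 genes here. In tumour 5, 13.5% of all genes were lost and 14.4% gained, and in tumour 1 10.3% were lost and 4.01% gained. The 6 calls are not independent, because the 5 in tumour 5 lie on 1 lost chromosome. Without tumour 5, the lost calls number 1.

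**Figure D1:**
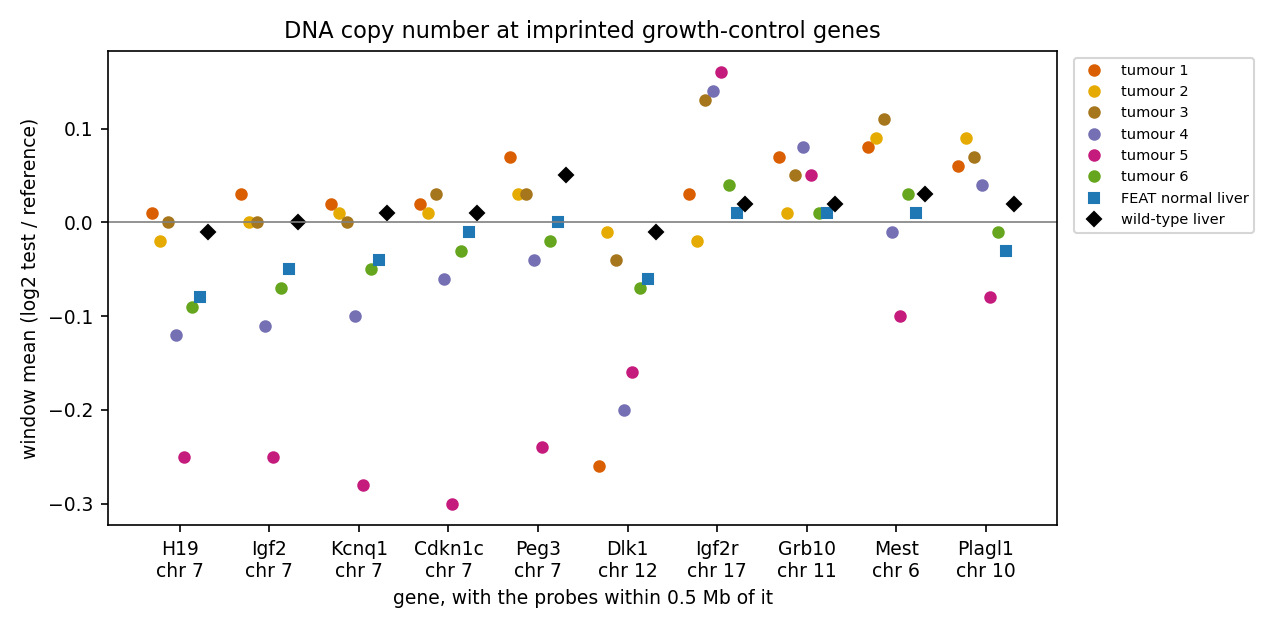
Mean log2 ratio of test over reference DNA in the window of each gene (vertical axis), by gene and chromosome (horizontal axis); each point is 1 array, circles for the 6 tumours, a square for the FEAT normal liver and a diamond for the wild-type liver. Tumour 5 stands at -0.30 to -0.24 at the 5 genes of chromosome 7, and tumour 1 is lowest at Dlk1 with -0.26.

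Igf2 encodes a fetal growth factor read from the paternal copy (chr7:139078498-139083272, 3 probes). Its window read 0.03, -0.00, 0.00, -0.11, -0.25 and -0.07 in tumours 1 to 6, -0.05 in the FEAT liver and 0.00 in the wild-type liver. Tumour 5 was lowest and tumour 4 next, while tumours 1 to 3 lay within 0.03 of 0. The tumours averaged -0.07 ± 0.10 (SD, n = 6) and overlapped both livers. In tumour 4 the window lay 0.12 below the rest of chromosome 7, in a segment at -0.01, and it read -0.04 after correction for GC content.

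H19, a maternally read noncoding RNA that shares an imprinting control region with Igf2, begins 75 kb from it on the array. Its window overlaps that of Igf2 and read 0.01, -0.02, -0.00, -0.12, -0.25 and -0.09 in tumours 1 to 6, -0.08 in the FEAT liver and -0.01 in the wild-type liver. As at Igf2, tumours 5 and 4 were the lowest.

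Kcnq1 encodes a potassium channel and hosts the control region of the neighbouring imprinted cluster (chr7:139537778-139854317). With 40 probes of its own it is the best covered of the 10. Its window read 0.02, 0.01, -0.00, -0.10, -0.28 and -0.05 in tumours 1 to 6, -0.04 in the FEAT liver and 0.01 in the wild-type liver. In tumour 5, 32 of the 38 Kcnq1 probes with values on all 3 arrays read below both non-tumour livers, and 1 read above both. In tumour 4 these numbers were 17 below and 12 above of 39, and in tumour 1 they were 7 below and 12 above of 38. The shift of tumour 5 was thus spread along the gene.

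Cdkn1c encodes a cyclin-dependent kinase inhibitor read from the maternal copy (chr7:139885787-139885846, 1 probe). Its window read 0.02, 0.01, 0.03, -0.06, -0.30 and -0.03 in tumours 1 to 6, -0.01 in the FEAT liver and 0.01 in the wild-type liver. Tumour 5 was the lowest by 0.24, and the other tumours lay close to both livers. Peg3, a zinc finger gene read from the paternal copy, lies at the opposite end of the same chromosome (chr7:6266294-6281868, 4 probes). Its window read 0.07, 0.03, 0.03, -0.04, -0.24 and -0.02 in tumours 1 to 6, 0.00 in the FEAT liver and 0.05 in the wild-type liver. By this window, tumour 5 was again the one array that stood apart. By the mean of Peg3's own probes tumour 5 read -0.05, near tumour 3 at -0.04. Of those 4 probes, 2 read below both livers in tumour 5 and 1 above both.

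In tumour 5 the loss at Igf2, H19, Kcnq1 and Cdkn1c belonged to a segment of 19.9 Mb and 2224 probes at a mean of -0.28 (chr7:121859566-141762546). Peg3 lay in a segment of 43.9 Mb and 4084 probes, also at -0.28 (chr7:3049177-46911191), and the 74.9 Mb between them stood at -0.25. All 1974 genes of the chromosome were therefore called lost in tumour 5, as were both imprinted clusters at its ends. The chromosome as a whole averaged -0.26 there, and between -0.01 and 0.04 on the other 7 arrays. Relative to the rest of chromosome 7, the windows of the 5 genes in tumour 5 departed by 0.01 at Igf2, -0.02 at Kcnq1, -0.04 at Cdkn1c and 0.02 at Peg3, with H19 at 0.01. These departures were at most 0.04 in size. The windows had standard errors over probes of 0.0176 to 0.0268, which treat the probes of 1 array as independent and do not measure spread between arrays. At Cdkn1c, the largest of the 5, the departures ran from -0.06 to 0.00 over all tumours. They were -0.01 and 0.00 in the FEAT and wild-type livers.

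**Figure D2:**
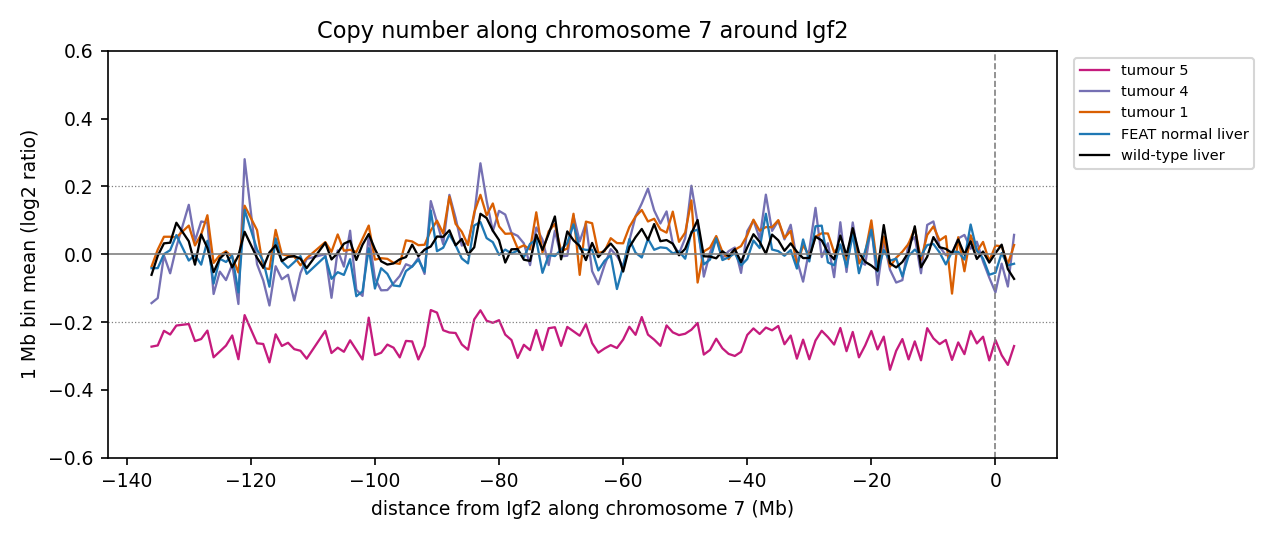
Mean log2 ratio in 1 Mb bins (vertical axis) along chromosome 7, by distance from Igf2 in Mb (horizontal axis), for tumours 5, 4 and 1 and both non-tumour livers; dotted lines mark 0.2 and -0.2 and the dashed line marks Igf2. Tumour 5, with a chromosome mean of -0.26, is below the other 4 arrays drawn in all 136 bins.

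Dlk1 encodes a membrane protein related to Notch ligands, abundant in the cells from which the liver forms and read from the paternal copy (chr12:106975593-106981762, 2 probes). Its window read -0.26, -0.01, -0.04, -0.20, -0.16 and -0.07 in tumours 1 to 6, -0.06 in the FEAT liver and -0.01 in the wild-type liver. Tumours 1, 4 and 5 were the lowest arrays, and 4 of the 6 tumours fell below both livers. The tumours averaged -0.13 ± 0.10 (SD, n = 6), with tumour 2 at the level of the wild-type liver. Tumour 6 lay only narrowly below the FEAT liver, and with windows of 0.25 Mb it read -0.04 against -0.07 there.

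In tumour 1 the Dlk1 segment spanned 11.3 Mb and 1232 probes at -0.27 (chr12:99614690-110919102). The rest of chromosome 12 was low too, with its mean at -0.21 and 79.1% of its 927 genes called lost. The segment in tumour 4 ran over 9.8 Mb with nearly the same borders (chr12:101118100-110919102). It stood at -0.18, not called, against -0.04 on either side. After correction for GC content the Dlk1 window read -0.15 in tumour 4 and -0.23 in tumour 1. The segments that then held Dlk1, drawn anew on the corrected values, stood at -0.06 in tumour 4 and at -0.21, still called, in tumour 1. These levels were near the chromosome means of -0.05 and -0.21, which were taken before the correction. The Dlk1 segment of tumour 5 covered 42.2 Mb at -0.13, within a chromosome at -0.11. Tumour 2 had a shallower segment of 10.6 Mb, at -0.04 against 0.03 and 0.05 beside it. After correction for GC content the segment that held Dlk1 in tumour 2 stood at 0.02. The wild-type liver also had a border nearby, with chr12:99539946-117798928 at -0.02 against 0.02 before it.

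**Figure D3:**
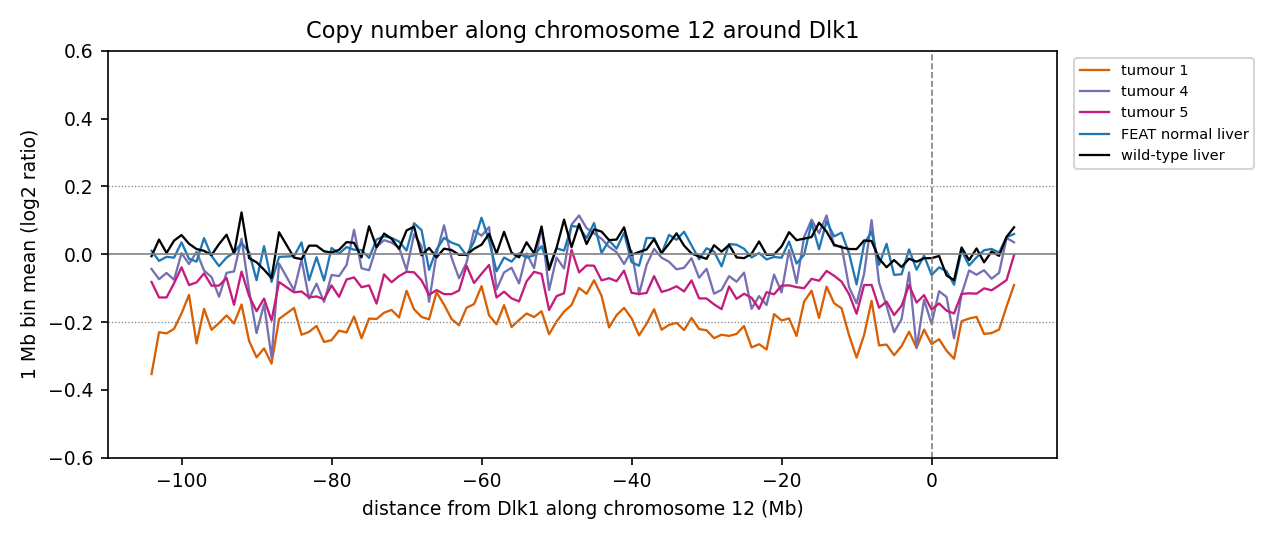
Mean log2 ratio in 1 Mb bins (vertical axis) along chromosome 12, by distance from Dlk1 in Mb (horizontal axis), for tumours 1, 4 and 5 and both non-tumour livers; dotted lines mark 0.2 and -0.2 and the dashed line marks Dlk1. Tumour 1 averages -0.21 over the chromosome, and tumour 4 dips to a segment mean of -0.18 around Dlk1.

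Igf2r encodes the receptor that binds IGF2 and delivers it to lysosomes for breakdown, and in mice it is read from the maternal copy (chr17:11399638-11485580, 15 probes). Its window read 0.03, -0.02, 0.13, 0.14, 0.16 and 0.04 in tumours 1 to 6, 0.01 in the FEAT liver and 0.02 in the wild-type liver. Tumours 3, 4 and 5 were the highest arrays, 5 of 6 tumours lay above both livers, and tumour 2 lay below both. The tumours averaged 0.08 ± 0.07 (SD, n = 6). By the mean of Igf2r's own probes, the wild-type liver at 0.13 lay above tumours 1, 2, 3 and 6 (0.06, 0.04, 0.11 and -0.09). Tumours 4 and 5, at 0.20 each, lay above that liver, and the FEAT liver at -0.11 was the lowest array. In tumour 5 the Igf2r segment of 18.3 Mb (chr17:3006536-21259788) had a mean of 0.19996, just short of the calling threshold, and the chromosome averaged 0.19. In tumour 4 the same stretch stood at 0.16 in a chromosome at 0.13. With each array centred on its mode, both were called gained, at 0.24 in tumour 4 and 0.21 in tumour 5. In tumour 3 the segment of 22.4 Mb stood at 0.05, while the window mean lay 0.08 above the rest of the chromosome. By the median over its probes that window read 0.06.

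**Figure D4:**
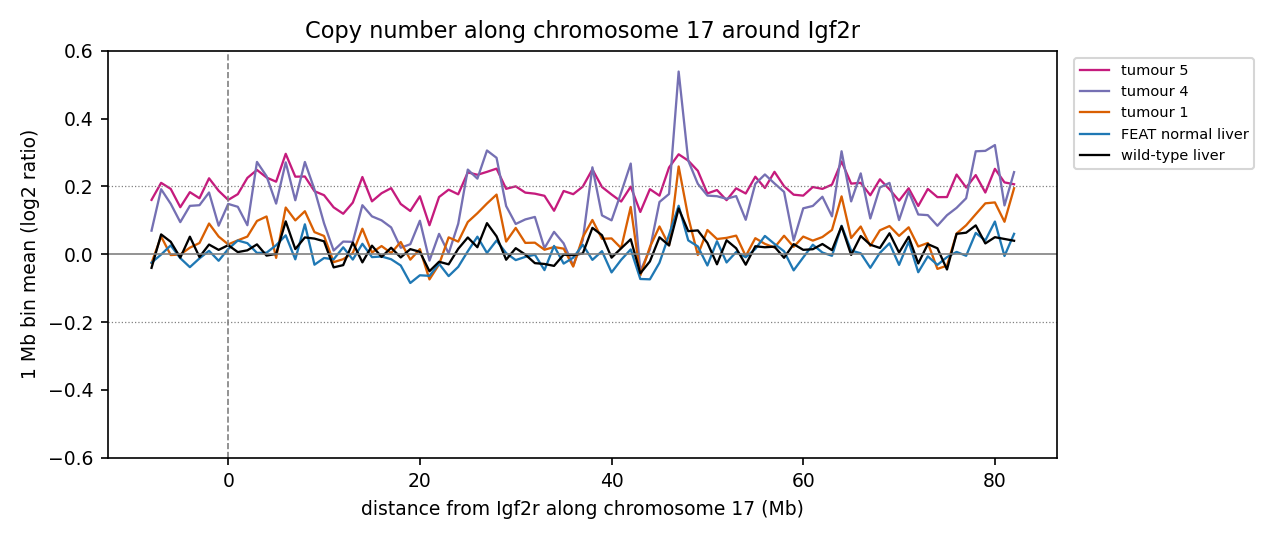
Mean log2 ratio in 1 Mb bins (vertical axis) along chromosome 17, by distance from Igf2r in Mb (horizontal axis), for tumours 5, 4 and 1 and both non-tumour livers; dotted lines mark 0.2 and -0.2 and the dashed line marks Igf2r. Tumour 5, with a chromosome mean of 0.19, and tumour 4, with 0.13, lie above both livers over most of the chromosome.

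The remaining genes had no call in any array. Grb10 encodes an adaptor that binds the insulin and IGF1 receptors and restrains growth (chr11:11882907-11988296, 15 probes). Its window ranged from 0.01 to 0.08 in the tumours and was 0.01 and 0.02 in the FEAT and wild-type livers, the narrowest range of the 10 genes. Mest, a paternally read gene of the alpha/beta hydrolase fold family (chr6:30671922-30680052, 3 probes), ranged from -0.10 in tumour 5 to 0.11 in tumour 3, with 0.01 and 0.03 in the livers. Plagl1 encodes a zinc finger transcription factor read from the paternal copy (chr10:12793561-12825021, 6 probes). It ranged from -0.08 in tumour 5 to 0.09 in tumour 2, with -0.03 and 0.02 in the livers. At both genes tumour 5 was the lowest array, with chromosome means of -0.08 and -0.10.

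The genes were also grouped by the parental copy from which each is mainly read. Of the 5 paternally read genes, 3 (Igf2, Peg3 and Dlk1) were lost in 1 tumour each. So were 3 of the 5 maternally read genes (H19, Kcnq1 and Cdkn1c). Over all genes, 23.9% were lost in at least 1 tumour. Tumour 5 held 5 of these 6 losses, all on its lost chromosome 7, so the counts are not independent. Which parental copy was lost cannot be told from the array. Growth-promoting Igf2 and growth-restraining H19 and Cdkn1c were lost in the same tumour and the same segment.

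The 6 tumours were set against both non-tumour livers with limma, fitted over the windows of 25601 genes. The FEAT and wild-type livers were pooled and assumed to vary as the tumours do. Only the wild-type liver lacks the transgene, so genotype is partly mixed into the contrast. At an adjusted p under 0.05, 0% of the genes were called (0 genes, with 33, or 0.129%, at an unadjusted p under 0.05). None of the 10 genes was below 0.05 before adjustment. Windows of neighbouring genes overlap and move with their whole chromosome, so the 25601 tests are far from independent. The share of 0.129% therefore does not show whether the fit was conservative. A change held by few tumours widens the spread among them, so this fit could hardly call it. The largest differences among the 10 were -0.09 at Dlk1 (95% interval -0.24 to 0.06, limma adjusted p = 0.998) and 0.06 at Igf2r (-0.06 to 0.18, limma adjusted p = 0.998). At Igf2 the difference was -0.04 (-0.20 to 0.11), and it was -0.0061 without tumour 5, -0.0147 without the wild-type liver and -0.07 without the FEAT liver. The median difference was -0.04 over the 10 genes and 0.01 over all genes. For the 10 genes it was -0.0034 without tumour 5, -0.0085 without the wild-type liver and -0.069 without the FEAT liver. The tumour SDs of the windows were 0.03 to 0.12, and no window of the 10 separated the 6 tumours from both livers.

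A second limma fit used each window's departure from the rest of its own chromosome, which removes whole-chromosome shifts. It also called 0% of the 25601 genes (0 genes, with 192, or 0.75%, at an unadjusted p under 0.05), and none of the 10 before adjustment. The differences of the 10 genes ran from -0.03 at Dlk1 (-0.08 to 0.03, limma adjusted p = 1) to 0.03 at Plagl1 (-0.02 to 0.07, limma adjusted p = 1). With the FEAT normal liver left out this fit called 21 genes lower, with none of the 10 among them. The intervals of the 10 genes were narrower here than for the windows themselves.

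**Figure D5:**
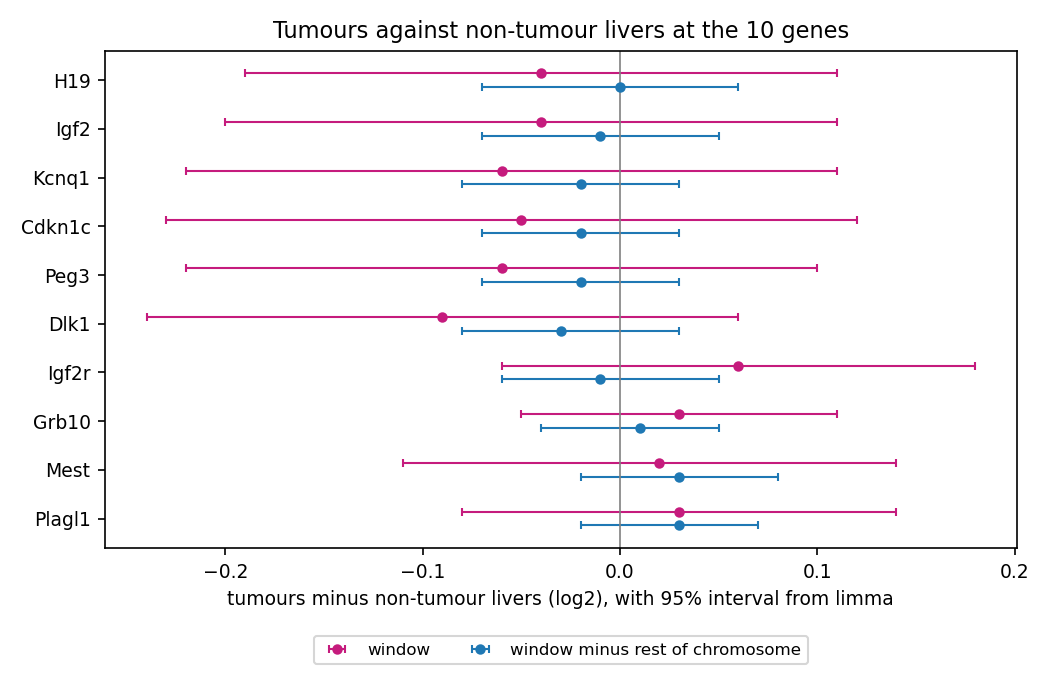
Difference between the 6 tumours and the 2 non-tumour livers in log2 ratio (horizontal axis) for each of the 10 genes (vertical axis), as the window mean and as the window minus the rest of its chromosome; points are limma estimates and bars their 95% intervals. All intervals include 0, and Dlk1 has the lowest window difference, -0.09.

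A wider list of imprinted genes held 58 others, of which 43 were found on the array. Of these, 24 were lost and 3 gained in at least 1 tumour, where 23.9% and 16.5% of all genes were, and 16 had no call. Tumour 5 held 21 of the losses, 20 of them on chromosome 7 and so within the same lost chromosome as Igf2 and Peg3. The lowest windows there were Inpp5f at -0.32, Rasgrf1 on chromosome 9 at -0.31 and Slc22a18 at -0.30. The other 3 losses, in tumour 1, were the noncoding RNA gene Meg3 (Gtl2 on the array) at -0.26, Rtl1 at -0.26 and Dio3, which encodes a thyroid hormone-inactivating deiodinase, at -0.23. These share the Dlk1 segment, and were chosen for mention after their values were seen. The 3 gained genes lie on chromosome 15 and were gained in both tumour 1 and tumour 5. Slc38a4, an amino acid transporter, read 0.31 and 0.23, Trappc9 (1810044A24Rik on the array) 0.30 and 0.25, and Kcnk9 0.27 and 0.23. By limma on the windows, 0 of the 43 were called, and the median difference was -0.01.

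Of 20 genes of the insulin-like growth factor pathway, 18 were found. In this list 2 genes (11.1%) were lost and 5 (27.8%) gained in at least 1 tumour, where 23.9% and 16.5% of all genes were, and 11 had no call. Igf1r, the receptor through which IGF2 signals, was lost in tumour 5 with a window at -0.28, on the same chromosome as Igf2. Akt1, a kinase downstream of it, was lost in tumour 1 with a window at -0.29, in the segment that holds Dlk1. The adaptor gene Irs1 was gained in tumour 5 at 0.34. The binding protein genes Igfbp2 and Igfbp5, both on chromosome 1, were gained in tumour 5 (0.31 and 0.30) and in tumour 4 (0.17 and 0.15 in segments of 0.21). In tumour 4, 3.32% of all genes were gained. By limma on the windows, 0 of the 18 were called, and the median difference was 0.03.

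The named genes on other autosomes whose windows followed each locus most closely were found by Pearson's r over the 8 arrays, as a description. For Igf2 these were BC048356 and Fez1 on chromosome 9 (both r = 0.996) and Ret on chromosome 6 (r = 0.994). For Peg3 they were Pik3cb, Tbx18 and 2810457I06Rik, all on chromosome 9 and at r = 0.996. In tumour 5 the windows of Fez1, Ret and Pik3cb read -0.34, -0.09 and -0.26. For Igf2r they were Dennd1a on chromosome 2 (r = 0.986), Stk10 (r = 0.972) and Myo1d (r = 0.956), both on chromosome 11. For Dlk1 they were AF245444 (r = 0.989), AK078331 (r = 0.982) and AK039749 (r = 0.975), all on chromosome 4. These windows share the arrays, and with them each array's noise and whole-chromosome changes. Pearson's r takes no account of the size of a shift, so a high r does not mean a loss or gain of like size.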

How the data were processed

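Genomic DNA was hybridised to 2-colour Agilent 244A arrays, test in Cy3 and reference in Cy5, per the labels. The deposited values are log2 ratios. On the wild-type array, the only one with a scanner file used here, they equalled the deposited log10 ratio of red over green (per the file headers) times -3.3219, plus 0.0014 (r = -1). Higher values therefore mean more test DNA there. For the other 7 arrays this direction rests on the labelled dyes. Per the file headers, Feature Extraction 9.1.3.1 made the deposited intensity signals, which were used only for brightness and flags. Per the series description, CGH analytics was used for the analysis.

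Spots of 1 probe were averaged, leaving 232626 probes, and arrays were centred on the autosomal median without loess or quantile normalisation. Outlying values were limited to within 3 noise SDs of the running median over 5 probes. Segments came from penalised least squares with a penalty factor of 2 and at least 5 probes, and were called at 0.2. Windows needed 20 probes. The 6 tumours were set against 2 non-tumour livers by limma 3.58.1 (R 4.3.3), calling at 0.05 after Benjamini-Hochberg adjustment, and Python 3.11.15 did the rest. Both the segmentation and the limma fit were run on simulated data with noise drawn independently between probes or genes. The limma simulation planted its shift in every tumour, whereas none of the 10 genes was called in more than 1 tumour. These simulations therefore do not show how well the fit finds a change held by few tumours. The number of arrays limits precision. The 6 tumours came from mice of different ages and so from separate animals.

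All 10 genes were named. Of the 2 wider lists, examples were the 3 genes per direction with the largest window mean in a tumour that called them; the most similar genes were the top 3 per locus, with overlapping windows counted once. The genes, lists and tests were chosen with earlier results of these data known. Alternatives covered the threshold, penalty, probe minimum, window, centring, GC correction, dim probes and each array left out.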

Additional observations from a re-analysis of the deposited data

Results flagged for a closer look

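Each gene's 6 tumour values were examined for a single value standing apart (Dixon's ratio above its 95% critical value), for the window mean, the mean of the gene's own probes and the window's departure from its chromosome. Of 30 such groups, 4 held one, where chance gives about 1 in 20, or 1.5. The Cdkn1c window in tumour 5 read -0.30, with the other tumours between -0.06 and 0.03. The Peg3 window in tumour 5 read -0.24, with the others between -0.04 and 0.07. The mean of the Kcnq1 probes in tumour 5 was -0.27, with the others between -0.01 and 0.09. The Dlk1 window departed from the rest of chromosome 12 by -0.15 in tumour 4, with the others between -0.08 and -0.03. The first 3 lie on 1 lost chromosome and are not independent.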

How the results depend on the processing

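The 6 lost calls became 8 at a threshold of 0.1, which added Dlk1 in tumours 4 and 5, and 0 at 0.3. They ranged from 1 to 6 with each tumour left out in turn (1 without tumour 5), an alternative chosen after seeing the data. The 0 gained calls became 2 at a threshold of 0.1 and 2 with centring on the mode, all at Igf2r in tumours 4 and 5. The limma count of departures ranged from 0 to 21 over the arrays left out, with 21 without the FEAT normal liver; the cause was not tested. The limma count over windows was 0 under every alternative run. The difference between tumours and livers kept its direction in 145 of 150 comparisons of a gene under an alternative. With a gene's own probes in place of its window it reversed to 0.11 at Igf2, 0.29 at H19, -0.03 at Mest and -0.04 at Plagl1, and with windows of 1 Mb to -0.01 at Mest. The lowest adjusted p of any of the 10 genes under these alternatives was 0.961 by limma over windows and 0.998 over departures. No paired analysis was possible because the labels match no tumour with a non-tumour liver of the same mouse.

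Probe noise (highest in tumour 4) and the single arrays of both livers limit all comparisons. Changes smaller than a window, the parental copy lost and the share of cells carrying a loss were not measured.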
